A study of Arabidopsis thaliana with 12 samples.

Results

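The expression of 8 genes of fermentation and anaerobic metabolism was followed in roots of wild type and clf seedlings under iron sufficiency and iron deficiency. They are ADH1 (AT1G77120, alcohol dehydrogenase), PDC1 (AT4G33070) and PDC2 (AT5G54960, both pyruvate decarboxylases), LDH (AT4G17260, lactate dehydrogenase), SUS1 (AT5G20830) and SUS4 (AT3G43190, both sucrose synthases), HB1 (AT2G16060, phytoglobin) and LBD41 (AT3G02550). They were chosen by name and function among the 32678 genes of the count table, with earlier results of these data known. Counts of these genes set against the share over all genes are therefore descriptive. All 8 were among the 20168 genes that passed the filter on low counts. The study sequenced 4 groups of 3 biological replicates, 12 libraries in all. Wild type was the ecotype Columbia-0, and clf was the T-DNA insertion line clf-29 in that background, so that every difference between genotypes rests on 1 mutant line. CLF encodes a histone methyltransferase of Polycomb Repressive Complex 2. Seedlings of every group grew for 12 days on B5 medium and then for 3 days on medium with iron (+Fe) or on medium without added iron that contained the iron chelator ferrozine (-Fe), so iron supply and the presence of ferrozine cannot be told apart. The 4 groups are called wild type +Fe, wild type -Fe, clf +Fe and clf -Fe.

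Fermentation lets plant cells keep glycolysis running when respiration is limited. Pyruvate is decarboxylated by pyruvate decarboxylase and the resulting acetaldehyde is reduced to ethanol by alcohol dehydrogenase, or pyruvate is reduced directly to lactate by lactate dehydrogenase, and either route returns NAD+ to glycolysis. Sucrose synthase supplies the sugar by splitting sucrose at a low energy cost, and a stress-induced phytoglobin scavenges nitric oxide. In Arabidopsis roots these genes are known as core members of the response to low oxygen, and LBD41 encodes a transcription factor of the LOB domain family that is induced with them. The promoters of many such genes are bound by group VII ethylene response factors, which are degraded when oxygen is plentiful.

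Library totals ran from 18658428 to 28281420 counted reads. CLF itself stood between 43.6 and 55.1 CPM (counts scaled to library size with TMM factors) in the 6 wild type libraries and between 10.3 and 15.8 CPM in the 6 clf libraries. All 9 root markers were detected in every group. The summed level of 7 iron deficiency markers was 103.2 to 698.7 CPM in the +Fe libraries and 2173 to 9236 CPM in the -Fe libraries. FER1, a ferritin gene among the 7, went the other way. Its group means fell from 65.8 to 2.74 CPM in wild type and from 29.9 to 2.72 CPM in clf. Of 9 green shoot markers, 2 (RBCS2B and CA1) had a group mean under 1 CPM in each group, with readings of 1.90 and 1.78 CPM in wild type -Fe replicate 1, and none was at 0 throughout a group. Their summed level was 171.7 to 300.2 CPM in wild type +Fe, 36.0 to 196.3 in wild type -Fe, 146.8 to 426.4 in clf +Fe and 85.1 to 150.4 in clf -Fe, lower on the whole under -Fe, and its part in the iron comparisons was not tested. In each group 1 library correlated least with the others of its group over 20034 genes outside the lists used here: replicate 1 of wild type +Fe (mean correlation 0.934), of wild type -Fe (0.935) and of clf -Fe (0.953), and replicate 2 of clf +Fe (0.951), against 0.959 to 0.970 for the other 8 libraries. In these 4 libraries the clock gene LHY was at 3.14 to 6.63 CPM and CCA1 at 2.97 to 6.67 CPM, against 58.9 to 100.5 CPM and 26.7 to 48.2 CPM in the other 8. ELF4, an evening-expressed clock gene, was at 23.4 to 76.5 CPM in them and at 4.78 to 11.1 CPM elsewhere. Root markers above their group mean of log2 CPM numbered 3, 4, 2 and 3 of 9 in these 4 libraries. The order is wild type +Fe, wild type -Fe, clf +Fe and clf -Fe. Of the 7 iron deficiency markers 2, 0, 2 and 2 were above it. In clf -Fe replicate 3, which is not among these 4 libraries, the counts were also 3 of 9 and 2 of 7. In wild type -Fe replicate 3 the root marker count was also 4 of 9. Of the 8 green shoot markers that were tested 6, 8, 7 and 1 were above it in the 4 libraries, in the same order. The iron transporter gene IRT1 was at 36.0 CPM in wild type +Fe replicate 1, against 331.8 and 338.7 CPM in the other replicates. In clf +Fe replicate 2 it was at 16.8 CPM, against 162.0 and 303.3 CPM. The summed level of the 10 clock genes ranged from 323.3 to 546.4 CPM and none was at 0 in any group. These 4 are called the outlying libraries, and the fold changes and calls are also given with them left out together. In bulk RNA a change in the share of cells of a type and a change in RNA per cell cannot be told apart.

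Short stretches upstream of the coding regions are shown because the genes that moved together with iron supply and those that did not can be set side by side at the sequence level. The letters AAACCA open the hypoxia-responsive promoter element of Arabidopsis, which in its longer form continues with GC after 3 further letters (any letters were accepted here). CACGTG is the G box and GCCGCC the GCC box. All 4 were searched on both strands in the 500 bases before the start codon of each gene of the RefSeq annotation (build TAIR10.1), and the short AAACCA search includes every match of the longer form. Each line below is 30 bases, read 5′ to 3′ on the strand of the gene, with the match in capitals. A match on the opposite strand appears as its reverse complement, as in HB1 and SUS1. The first lines hold the longer form, those of PDC1 and SUS1 hold the short form, and those of PDC2 a G box and the GCC box.
ADH1 (chr1:28975080-28975109, plus strand): aaccgcccgAAACCAAAAGCattcgatggg
SUS4 (chr3:15183043-15183072, minus strand): cagaaaataAAACCAATAGCgtatattctg
HB1 (chr2:6983685-6983714, minus strand): cagtacagaGCACATGGTTTcactttttaa
PDC1 (chr4:15954852-15954881, minus strand): acaagaaaacagAAACCAaaaaccactagt
SUS1 (chr5:7054347-7054376, minus strand): aaaaacgaatttTGGTTTcgccatgtgtac
PDC2 (chr5:22312884-22312913, minus strand): actatataaggaCACGTGtcaatctcagag
PDC2 (chr5:22312831-22312860, minus strand): aatatcttattaGCCGCCtatttcatacca

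The longer form was found before ADH1, SUS4 and HB1, and before 1.74% of all 27443 genes searched. AAACCA alone was found before 7 of the 8 genes, PDC2 being the exception, and before 48.5% of all genes. PDC2 held 2 G boxes and the GCC box, and ADH1 and LBD41 held 1 G box each, where 9.30% of all genes held a G box and 5.02% a GCC box. A second window was the 250 bases before the annotated gene start. There the longer form was found for 1 of the 8 genes, ADH1, and for 0.809% of all genes. AAACCA was found there for 4 of the 8 and 27.3% of all genes. A G box was held there by 3 of the 8 and 6.49% of all genes. The HB1 and SUS1 stretches lie in annotated exons upstream of the start codon. Those of ADH1 and PDC1 lie outside annotated exons and before the annotated gene start. That of SUS4 lies outside annotated exons but within the annotated gene, which spans 15179010 to 15184105 of chromosome 3. Of the PDC2 pair the GCC box stretch touches an annotated exon. A match describes the letters in its window and is not evidence of a bound site. The genes sit on 5 chromosomes. In TAIR10.1, ADH1 spans 28975255 to 28977417 of chromosome 1 with 7 exons, and it overlaps AT1G77122 on the opposite strand by 61 bases. PDC1 spans 15952257 to 15954803 of chromosome 4, and PDC2 spans 22310553 to 22312832 of chromosome 5 with a coding transcript of 1 exon. The coding sequences of PDC1 and PDC2 were identical at 76.2% of aligned bases with a longest shared run of 20 bases. Those of SUS1 and SUS4 were identical at 84.5% with a longest shared run of 38 bases. Those of PDC1 and its further paralog PDC3 were identical at 86.8% with a longest shared run of 43 bases. The paired-end reads of the study were longer than each of these runs, so no full-length read fits inside such a run. Whether reads were shared between paralogs was not tested.

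Most of the fermentation genes were higher under iron deficiency in both genotypes. In wild type, transcripts of ADH1, PDC1, LDH, SUS4, HB1 and LBD41 were higher under -Fe, from 3.60-fold for LDH to 23.2-fold for ADH1. In clf, ADH1, PDC1, SUS4, HB1 and LBD41 were higher, from 7.20-fold for PDC1 to 25.9-fold for ADH1. PDC2 and SUS1, the paralogs of PDC1 and SUS4, did not pass the test in either genotype. The counts were 6 of 8 genes higher in wild type and 5 of 8 in clf, at a Benjamini-Hochberg adjusted p under 0.05 over all 20168 genes in the quasi-likelihood test of edgeR. Among all tested genes 2.28% were called higher and 2.14% lower in wild type, and 1.27% higher and 0.491% lower in clf. The 8 genes had a median log2 fold change of 2.75 (wild type) and 2.97 (clf), against -0.003 and -0.011 over all tested genes. Without wild type +Fe replicate 2, or without replicate 3, the wild type count was 3 (ADH1, SUS4 and HB1). In clf it was 2 without clf +Fe replicate 1 or replicate 3, and 3 without clf +Fe replicate 2. The share of all genes called in these smaller fits is not given here. Whether other genes lost their calls to a like extent was not tested.

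**Figure D1:**
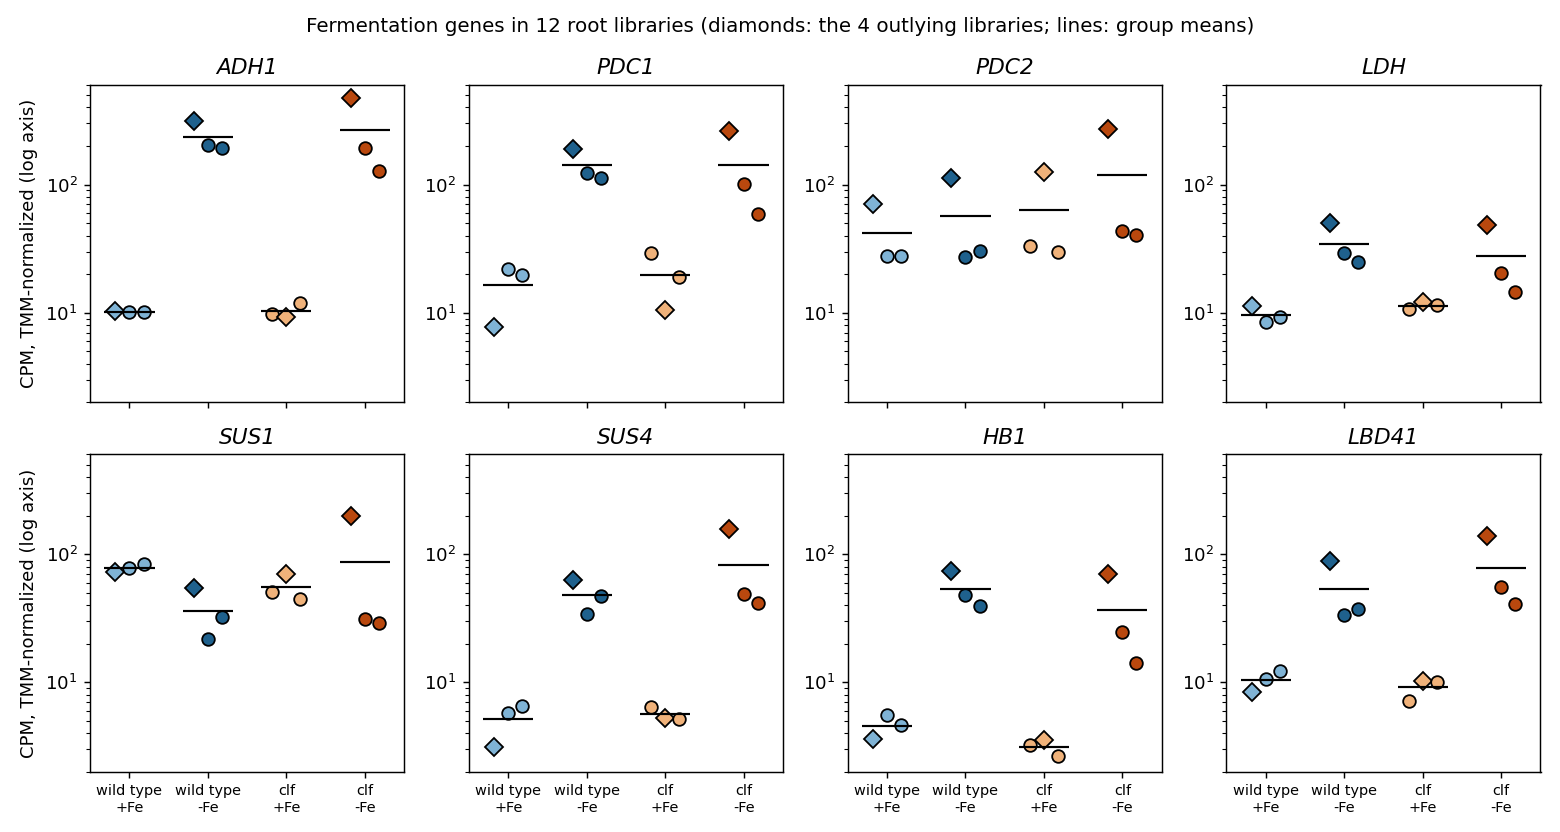
Level of each gene in every library, as TMM-normalised CPM on a log axis, for the 4 groups of 3 libraries. Points are libraries, diamonds are the 4 outlying libraries and horizontal lines are group means. ADH1 lies between 9.22 and 12.0 CPM in all 6 +Fe libraries and between 126.8 and 477.7 CPM in all 6 -Fe libraries, whereas the diamonds of PDC2 lie above the circles in every group.

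ADH1, the last enzyme of ethanol fermentation, had the largest fold change of the 8 genes in both genotypes. In wild type +Fe its level was 10.34, 10.07 and 10.17 CPM in replicates 1 to 3, and in wild type -Fe it was 312.2, 204.8 and 192.3 CPM. The +Fe libraries agreed closely (coefficient of variation 1.35%), and the -Fe libraries were all far above them. This was a log2 fold change of 4.54 with an SE of 0.45 (adjusted p = 0.000458). The clf +Fe libraries were at 9.71, 9.22 and 12.0 CPM and the clf -Fe libraries at 477.7, 194.5 and 126.8 CPM. The groups were again well separated, and the spread of clf -Fe was wide, at 266.3 ± 186.1 CPM (SD, n = 3) against 236.5 ± 65.9 CPM in wild type -Fe. In clf ADH1 changed by 4.69 on the log2 scale (SE 0.46, adjusted p = 0.000476). With the outlying libraries left out these values became 4.29 and 3.90.

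PDC1 and PDC2 encode the enzyme that commits pyruvate to ethanol. PDC1 passed the test in both genotypes and PDC2 in neither. PDC1 was at 7.68, 21.8 and 19.5 CPM in wild type +Fe and at 190.3, 123.6 and 113.6 CPM in wild type -Fe. The groups did not overlap, and replicate 1 was the lowest library of the first and the highest of the second. PDC1 changed by 3.13 on the log2 scale in wild type (SE 0.61, adjusted p = 0.0174), a call that was lost in 3 of 21 alternative analyses (adjusted p of up to 0.0703). Its clf levels were 29.3, 10.5 and 18.9 CPM under +Fe and 263.2, 100.7 and 59.3 CPM under -Fe, a log2 change of 2.85 (SE 0.60, adjusted p = 0.0409). This call in clf was lost in 12 of 21 alternative analyses, with adjusted p-values of up to 0.162, while the log2 fold change stayed between 1.72 and 3.27. Over the 8 libraries that are not outlying PDC1 changed by 2.52 in wild type (adjusted p = 0.00155) and by 1.72 in clf (adjusted p = 0.0128).

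PDC2 was at 70.0, 27.5 and 27.9 CPM in wild type +Fe and at 113.6, 27.2 and 30.1 CPM in wild type -Fe. It was at 33.0, 126.0 and 29.7 CPM in clf +Fe and at 271.0, 43.1 and 40.6 CPM in clf -Fe. In each group the highest of the 3 libraries was the outlying one, and the -Fe and +Fe groups overlapped. The wild type log2 fold change was 0.45, with a 95% interval of -1.50 to 2.39 (adjusted p = 0.849), and that in clf was 0.91, with an interval of -1.04 to 2.86 (adjusted p = 0.733). Over the other 8 libraries PDC2 had a value of 0.05 in wild type (adjusted p = 0.808) and 0.42 in clf (adjusted p = 0.0217). The difference between the paralogs in their response was not tested. DESeq2 gave no p-value for PDC2.

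LDH, which reduces pyruvate to lactate, was at 11.2, 8.40 and 9.26 CPM in wild type +Fe and at 49.95, 29.2 and 24.9 CPM in wild type -Fe. All -Fe libraries were above all +Fe libraries. Its log2 fold change of 1.85 (SE 0.41, adjusted p = 0.0285) was the lowest of the 6 that passed, and the call was lost in 5 of 21 alternative analyses, with adjusted p-values of up to 0.114. Its levels in clf were 10.7, 12.0 and 11.4 CPM under +Fe and 48.7, 20.5 and 14.6 CPM under -Fe, and the groups did not overlap. In edgeR the clf value of 1.30 (SE 0.40) missed the threshold, at an adjusted p of 0.156. It passed in DESeq2 (adjusted p = 0.0337), and over the 8 remaining libraries, where it was 0.67 (adjusted p = 0.0136).

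**Figure D2:**
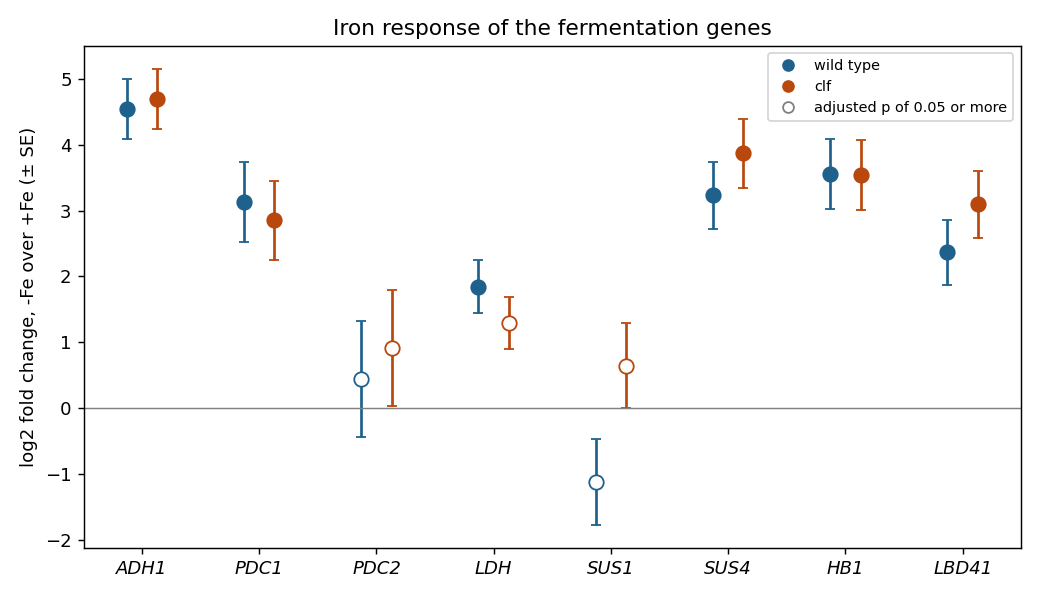
Log2 fold change of -Fe over +Fe for the 8 genes in wild type (blue) and clf (orange). Points are estimates from the 12-library fit and bars are ± SE. Filled points have an adjusted p under 0.05 and open points do not. ADH1 is highest in both genotypes (4.54 and 4.69), whereas PDC2 and SUS1 are open in both and SUS1 lies on opposite sides of 0.

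Of the sucrose synthase pair, SUS4 passed the test in both genotypes and SUS1 in neither. SUS4 was at 3.12, 5.79 and 6.52 CPM in wild type +Fe and at 63.2, 34.4 and 46.9 CPM in wild type -Fe. The clf levels were 6.45, 5.29 and 5.19 CPM under +Fe and 156.2, 49.1 and 41.7 CPM under -Fe. SUS4 was low in all 6 +Fe libraries and at least at 34.4 CPM in all 6 -Fe libraries. SUS4 rose by 3.23 in wild type (SE 0.51, adjusted p = 0.00648) and by 3.87 in clf (SE 0.52, adjusted p = 0.00392) on the log2 scale, and by 2.72 and 2.95 over the 8 libraries that are not outlying.

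SUS1 was at 72.7, 77.6 and 84.1 CPM in wild type +Fe and at 54.2, 21.7 and 32.1 CPM in wild type -Fe. Here the -Fe libraries were all below the +Fe libraries, the reverse of SUS4, and 11.6% of all tested genes had such a gap in this direction. At -1.12 on the log2 scale (SE 0.65) SUS1 did not pass the test (adjusted p = 0.403). In clf SUS1 was at 51.0, 69.6 and 45.04 CPM under +Fe and at 199.5, 31.0 and 28.9 CPM under -Fe. Replicate 1 of clf -Fe was the highest of all 12 libraries, and the other clf -Fe libraries were below every clf +Fe library. With all libraries the clf response was 0.65 (SE 0.64, adjusted p = 0.742). Over the other 8 libraries it was -0.68 (adjusted p = 0.00838) and the wild type response was -1.59 (adjusted p = 5.12e-06), so that SUS1 then passed as lower in both genotypes. Leaving out clf -Fe replicate 1 alone gave -0.88 in clf (adjusted p = 0.29).

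HB1, the phytoglobin, was at 3.59, 5.58 and 4.604 CPM in wild type +Fe and at 73.7, 48.4 and 39.4 CPM in wild type -Fe. In clf the levels were 3.22, 3.51 and 2.66 CPM under +Fe and 70.3, 24.6 and 14.2 CPM under -Fe. The response was clear of the spread in both genotypes, and the clf -Fe libraries spanned a ratio of 4.94 between highest and lowest. HB1 rose by 3.55 in wild type (SE 0.53, adjusted p = 0.00464) and by 3.54 in clf (SE 0.53, adjusted p = 0.00773). Over the 8 libraries the changes were 3.11 and 2.71. The call in clf was lost in 3 of 21 alternative analyses, with adjusted p-values of up to 0.0555.

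LBD41, the transcription factor, was at 8.40, 10.5 and 12.2 CPM in wild type +Fe and at 89.1, 33.4 and 37.6 CPM in wild type -Fe. In clf the readings were 7.12, 10.3 and 10.09 CPM under +Fe and 138.0, 55.4 and 40.6 CPM under -Fe. Replicate 1 was well above the other -Fe libraries in both genotypes. LBD41 rose by 2.36 in wild type (SE 0.49, adjusted p = 0.0236) and by 3.09 in clf (SE 0.51, adjusted p = 0.012), and by 1.64 and 2.49 over the 8 libraries. Each call was lost in 3 of 21 alternative analyses, with adjusted p-values of up to 0.0937 in wild type and 0.0791 in clf.

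In each genotype 6 of the 8 genes had every -Fe library above every +Fe library, where 10.5% of all tested genes did so in wild type and 11.6% in clf. In clf no gene of the 8 had every -Fe library below every +Fe library, against 10.9% of all tested genes. Over the 8 libraries that are not outlying, 6 of the 8 genes were called higher and 1 (SUS1) lower in wild type, and 7 higher and 1 (SUS1) lower in clf. Of all 20072 genes tested in that smaller set, 13.9% were called higher and 13.3% lower in wild type, and 8.92% higher and 5.64% lower in clf. The outlying libraries were chosen for their distance from their groups, so leaving them out narrows the spread within groups by construction.

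Levels per length, as the deposited FPKM (fragments normalised to transcript length and library size), changed order with iron supply. In wild type +Fe, SUS1 (28.4 ± 1.095 FPKM, SD, n = 3) and PDC2 (21.5 ± 13.6) were the most abundant of the 8 genes. LDH (8.00 ± 1.56), PDC1, LBD41 and ADH1 (7.34 ± 0.42) followed and did not differ from one another beyond their spread. HB1 (5.68 ± 1.06) was below every library of ADH1, and SUS4 was lowest at 1.93 ± 0.61, below every library of HB1. In wild type -Fe, ADH1 was highest at 164.3 ± 59.3 FPKM, with each library above every library of PDC1 (67.1 ± 25.1), which did not differ beyond its spread from HB1 (64.7 ± 26.5). LBD41 (39.7 ± 26.3), PDC2 (28.6 ± 26.7), LDH (27.8 ± 13.02) and SUS4 (17.6 ± 6.61) overlapped their neighbours, and SUS1, first under +Fe, was last at 12.7 ± 6.85 FPKM and overlapped SUS4.

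In clf +Fe, PDC2 (31.3 ± 27.8 FPKM) and SUS1 (19.6 ± 4.94) led and overlapped each other, and SUS4 was again lowest at 2.08 ± 0.22. In clf -Fe, ADH1 led at 173.5 ± 126.2 FPKM, above PDC1 at 62.3 ± 49.4, and LDH was lowest at 20.9 ± 14.3. No pair of neighbours in the clf -Fe order differed beyond its spread. Summed over the 8 genes the level was 88.5 ± 9.27 FPKM in wild type +Fe, 422.7 ± 189.1 in wild type -Fe, 89.1 ± 30.6 in clf +Fe and 462.9 ± 379.6 in clf -Fe. The wild type -Fe sums, from 308.6 to 640.9 FPKM, were all above the wild type +Fe sums, from 82.4 to 99.1, and the clf sums were likewise apart.

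Loss of CLF was compared at each iron supply, because the study asked whether Polycomb repression bears on the response of roots to iron deficiency. No fermentation gene passed the test between clf and wild type at either supply with all 12 libraries. Under +Fe, 0 of 8 genes were called, where 0.0694% of all tested genes were. None was below an unadjusted p of 0.05, against 3.37% of all tested genes, and DESeq2 called 0 of the 7 with an adjusted p in that tool (PDC2 had none) against 0.374% of all genes. The log2 differences (clf minus wild type) ran from -0.55 (HB1, 95% interval -1.66 to 0.57) to 0.59 (PDC2, -1.36 to 2.53). ADH1 differed by 0.01, with an interval of -0.87 to 0.90. HB1 and SUS1 were lower in every clf +Fe library than in any wild type +Fe library, as were 4.34% of all tested genes. For HB1 the means were 3.13 ± 0.43 and 4.59 ± 1.00 CPM, and for SUS1 they were 55.2 ± 12.8 and 78.1 ± 5.72 CPM.

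Under -Fe, 0 of 8 genes were called against 0.134% of all tested genes, none was below an unadjusted p of 0.05 against 7.72%, and DESeq2 called 0 of 7 against 1.12%. The log2 differences ran from -0.56 for HB1 (95% interval -1.61 to 0.48) to 1.26 for SUS1 (-0.17 to 2.70). The intervals allowed differences of more than 1 on the log2 scale for each of the 8 genes, in at least 1 direction. The difference between the iron responses of the 2 genotypes was also tested directly. Of the 8 genes 0 were called, and of all tested genes 0%. At an unadjusted p under 0.05 the count was 0 of 8 against 1.59% of all tested genes, and in DESeq2 it was 0 of 7 against 0.0149%. SUS1 had the largest difference, 1.77 (SE 0.91, unadjusted p = 0.0793, adjusted p = 1), followed by LBD41 at 0.73 (95% interval -0.74 to 2.196). For ADH1 the response in clf exceeded that in wild type by 0.16 on the log2 scale (95% interval -1.08 to 1.39).

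The genotype comparisons depended on the outlying libraries. Without them SUS1 was lower in clf under +Fe (-0.75, adjusted p = 0.0151), the 1 call among the 8, where 2.59% of all tested genes were called. Under -Fe, PDC2 was then higher in clf (0.55, adjusted p = 0.00658), and LDH (-0.63, adjusted p = 0.0249) and HB1 (-1.18, adjusted p = 0.00816) were lower, where 7.98% of all tested genes were called. The difference between the iron responses passed for SUS1 (0.91, adjusted p = 0.046) and just missed for LDH (-0.95, adjusted p = 0.0526), where 2.25% of all tested genes were called. In that set SUS1 fell less in clf than in wild type.

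Within the -Fe groups all 8 genes lay on the same side of their group mean in 5 of the 6 libraries. In clf -Fe replicate 1 all 8 genes were above their group mean, by 0.99 (LDH) to 1.82 (SUS1) on the log2 CPM scale, and in wild type -Fe replicate 1 all 8 were above it, by 0.44 (ADH1 and SUS4) to 1.33 (PDC2). In clf -Fe replicate 3 all 8 were below it, at -0.71 (SUS4) to -1.03 (HB1), as they were in clf -Fe replicate 2, at -0.21 (PDC1) to -0.86 (SUS1), and in wild type -Fe replicate 2, at -0.10 (HB1) to -0.74 (PDC2). In wild type -Fe replicate 3 SUS4 was at 0.01 and the other 7 were below. Deviations within a group sum to 0, so a high library places the others low on balance. The +Fe libraries showed no such common direction. In wild type +Fe replicate 1, PDC1 lay at -0.94 and PDC2 at 0.89, and in clf +Fe replicate 2 the same pair lay at -0.78 and 1.34. For PDC2 the highest library of each group was the outlying one. The low LHY and CCA1 levels given above occurred in the same 4 libraries. The low counts of root and iron deficiency markers given above were not confined to them. The part of these marker differences in the deviations was not tested.

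**Figure D3:**
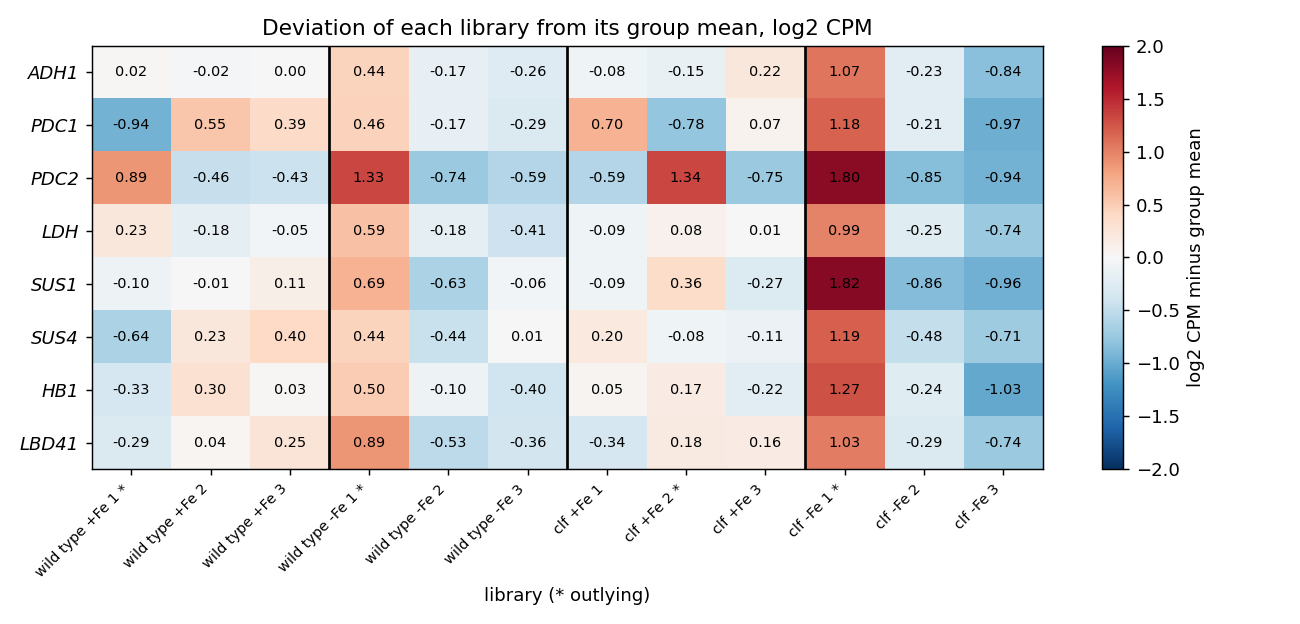
Deviation of each of the 12 libraries (columns) from the mean of its group for each of the 8 genes (rows), in log2 CPM. Red is above and blue below the group mean, the number in each cell is the deviation, vertical lines part the 4 groups and asterisks mark the outlying libraries. The column of clf -Fe replicate 1 is red throughout, from 0.99 to 1.82, and that of clf -Fe replicate 3 is blue throughout.

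Over the 12 libraries, log2 CPM of ADH1, PDC1, SUS4, HB1, LDH and LBD41 correlated with one another at Pearson r of 0.89 to 0.98, with ADH1 and SUS4 and also SUS4 and LBD41 at 0.98. SUS1 correlated with those 6 at -0.20 to 0.01 and PDC2 at 0.26 to 0.55, while SUS1 and PDC2 correlated with each other at 0.64. After the group means were removed SUS1 correlated with the same 6 genes at 0.62 to 0.90. These values describe 12 libraries that share the groups, the iron contrast and the outlying libraries. The lowest correlation of deviations was that of PDC1 with PDC2, at 0.17.

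The genes whose pattern over the 12 libraries was most like each member were listed as the 3 with the highest Pearson r of log2 CPM among all tested genes. For ADH1 they were AT3G27590 (r = 0.994), ZIF1 (0.993), a vacuolar transporter known from zinc tolerance, and ORG1 (0.992). For PDC1 they were ASP2 (0.988), a cytosolic aspartate aminotransferase, SAD6 (0.985) and AT5G56350 (0.981). For SUS4 they were HRA1 (0.991), a regulator that restrains group VII ethylene response factors, AT3G27220 (0.989) and ASP2 (0.981). For LBD41 they were AT5G25840 and AT2G17850 (both 0.977) and HRA1 (0.976). HRA1 and ASP2 thus stood among the top 3 of 2 members each.

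For HB1 the most alike were AT1G55360 (0.994), AT2G18193 (0.993) and AT2G04050 (0.992), and for LDH they were AT5G54100 (0.983), AT4G00290 (0.975) and AT2G21640 (0.975). PDC2 was set apart from this group, with DRH1 (0.964), AT1G13670 (0.956) and the clock gene ELF4 (0.956) as its nearest. SUS1 had AT1G27750 (0.95), PEX6 (0.927), a peroxisome biogenesis protein, and AT1G14910 (0.903).

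Among 36 other genes of the low-oxygen response, 34 were tested. In wild type 15 were called higher and 0 lower, against 2.28% and 2.14% of all tested genes. In clf 16 were called higher and 0 lower, against 1.27% and 0.491%. The median log2 fold change was 1.25 and 1.42. PCO1, a cysteine oxidase that marks group VII factors for degradation, rose from 2.34 ± 0.32 to 32.6 ± 2.73 CPM in wild type (log2 fold change 3.80, adjusted p = 1.16e-05) and from 2.64 ± 0.25 to 41.3 ± 13.6 CPM in clf (3.97, adjusted p = 9.59e-06). WIP4, a wound-responsive family protein, rose by 5.24 (adjusted p = 0.00072) and 4.96 (adjusted p = 0.000937), AT3G27220 by 1.85 and 2.24, ACO1, an ethylene-forming oxidase, by 2.41 in wild type (adjusted p = 0.000397) and AT5G44730 by 1.71 in clf (adjusted p = 0.000925). Not all of the list moved up, since 9 of the 34 had log2 fold changes below 0 in wild type and 5 in clf. Without the outlying libraries, 35 were tested, and 21 were called higher and 8 lower in wild type, and 25 higher and 3 lower in clf. Of all genes tested in that set 13.9% were higher and 13.3% lower in wild type, and 8.92% higher and 5.64% lower in clf.

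Of 25 genes of sucrose breakdown and cytosolic glycolysis, which feed pyruvate to fermentation, 8 rose in wild type and 6 in clf and none was called lower. Of all tested genes 2.28% and 1.27% were called higher. The median log2 fold change of these 25 genes was 0.37 and 0.32 and that of the fermentation genes 2.75 and 2.97. ENO2, the enolase, rose from 1392 ± 187.1 to 3179 ± 72.0 CPM in wild type (1.19, adjusted p = 0.00362) and from 1309 ± 78.1 to 3366 ± 529.4 CPM in clf (1.36, adjusted p = 0.00232). In wild type FBA8, an aldolase (1.13), GAPC1, a glyceraldehyde phosphate dehydrogenase (1.32), and iPGAM2, a phosphoglycerate mutase (1.45), rose with adjusted p-values of 0.00753, 0.00773 and 0.00916. In clf CINV1, a cytosolic invertase (1.13, adjusted p = 0.00547), iPGAM1 (1.04, adjusted p = 0.027) and iPGAM2 (1.26, adjusted p = 0.0288) rose. The transcripts named here were at 168.9 CPM or more in each +Fe library. With the outlying libraries left out 15 and 12 were called higher, where 13.9% and 8.92% of all tested genes were.

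**Figure D4:**
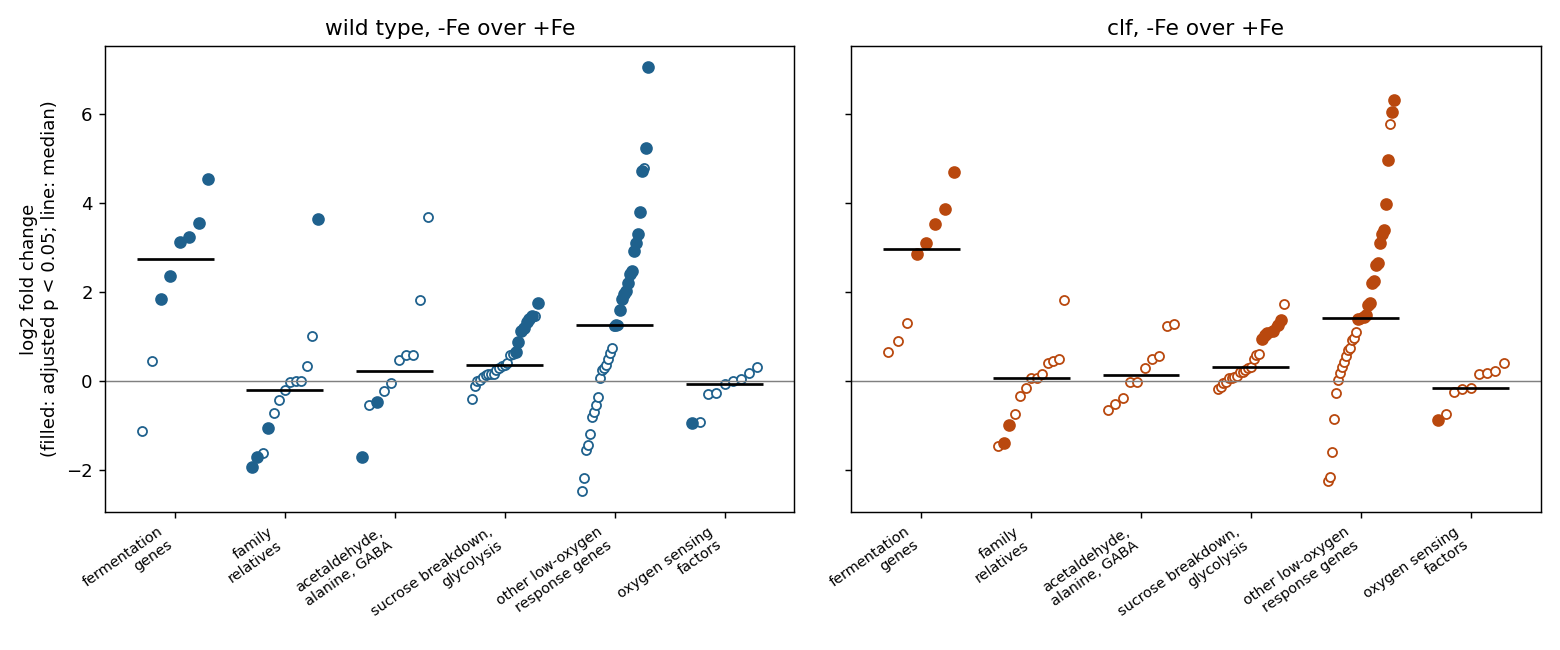
Log2 fold change of -Fe over +Fe for each tested gene of the 8 fermentation genes and of 5 related lists, in wild type (left) and clf (right). Each point is a gene, filled where the adjusted p is under 0.05, sorted within its list, and black lines are list medians. The fermentation genes have medians of 2.75 and 2.97 and the oxygen sensing factors of -0.06 and -0.16. The topmost point of each panel, AT2G17850, had 0 reads in wild type +Fe and 1 read in clf +Fe, so its fitted values are no bounds. Against a floor of 3 reads over the group its level in wild type -Fe was at least 15.8-fold higher.

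Of 14 family relatives of the fermentation genes, 13 were tested. In wild type 1 was called higher and 3 lower, against 2.28% and 2.14% of all tested genes. In clf 0 were called higher and 2 lower, against 1.27% and 0.491%. SUS3, a further sucrose synthase, fell by 1.06 in wild type (28.8 ± 2.92 to 13.9 ± 2.05 CPM, adjusted p = 0.00878) and by 0.98 in clf (adjusted p = 0.0201). LBD39, a repressor of nitrate-responsive genes, fell by 1.69 and 1.39 (adjusted p = 0.00127 and 0.00485). GLB3, a truncated hemoglobin, fell by 1.92 in wild type (adjusted p = 0.00937), where its family relative HB1 rose. LBD40 rose in wild type, from at most 0.16 CPM to 0.73 to 1.24 CPM (adjusted p = 0.0243).

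Of 10 genes that oxidise acetaldehyde or make alanine and GABA, 0 were called higher and 2 lower in wild type. Among all tested genes 2.28% were called higher and 2.14% lower there. In clf 0 of the 10 were called, and DESeq2 called 2 against 4.84% of all genes it tested. PPDK, pyruvate orthophosphate dikinase, fell by 1.70 (adjusted p = 0.0158), and ALDH2B4, a mitochondrial aldehyde dehydrogenase, by 0.46 (adjusted p = 0.0413). In clf 2 of the 10 were below an unadjusted p of 0.05, against 13.4% of all tested genes. Of 9 oxygen sensing factors, which include the constitutive group VII ethylene response factors and the enzymes of their degradation, 1 was called in each genotype. It was lower in both, as were 2.14% of all tested genes in wild type and 0.491% in clf. RAP2.12, a group VII factor, fell from 165.0 ± 11.5 to 86.5 ± 7.76 CPM in wild type (-0.93, adjusted p = 0.00397) and from 189.4 ± 25.5 to 103.0 ± 7.08 CPM in clf (-0.88, adjusted p = 0.00848). With all 12 libraries edgeR called 0 of the 91 tested genes of these 5 lists in either genotype comparison or in the difference between the iron responses. At an unadjusted p under 0.05 the counts of the 91 were 3 under +Fe, 15 under -Fe and 6 for the difference. Of all tested genes 3.37%, 7.72% and 1.59% were below it. DESeq2 called 0, 2 and 0 of these list genes, against 0.374%, 1.12% and 0.0149% of all genes it tested. Over the 8 libraries that are not outlying, 11 of 35 other low-oxygen genes were higher and 3 lower in clf under -Fe, where 980 and 622 of all 20072 tested genes were.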

How the data were processed

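RNA from roots of 12 samples was sequenced with a stranded TruSeq library kit. The authors mapped the reads to TAIR10 (the submitters' processing notes name TopHat2) and deposited read counts, which HTSeq had assigned to genes under its union rule. The sources used here do not give its strand setting. Reads of ADH1 and of the overlapping gene on the opposite strand may not have been told apart. The FPKM values deposited by the authors were used for levels between genes and as an alternative. An unnamed further column of the count table holds no values and was not used.

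Counts were filtered with filterByExpr, TMM-normalised and tested in edgeR 4.0.16 (R 4.3.3) with a robust quasi-likelihood fit of 4 groups in 1 model (8 residual degrees of freedom). p-values were adjusted by Benjamini-Hochberg over all 20168 tested genes at a threshold of 0.05. SE is the log2 fold change divided by the square root of F, and intervals are 95%. log2 CPM used a prior count of 2. The procedure was tested on simulated data. The smallest library held 18658428 counts, and counting error covers only part of the spread between libraries.

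All 8 members are named in each comparison. From each further list the called genes are named, or the 4 with the smallest p where more were called, and for likeness the 3 genes with the highest correlation. The members, lists and motifs were chosen with earlier results of these data known. Gene names come from the files' identifiers and RefSeq. Same-numbered libraries deviated together (all r over 0.1) between the iron groups of wild type (0.618, 0.441 and 0.463) and between genotypes under -Fe (0.447, 0.539 and 0.164), but not between the iron groups of clf (-0.393, -0.342 and 0.433) or between genotypes under +Fe (-0.383, -0.396 and 0.341). Some differently numbered libraries also deviated together, such as wild type +Fe 2 with wild type -Fe 3 (0.412) and clf +Fe 2 with clf -Fe 1 (0.566). Under -Fe wild type 3 with clf 2 was at 0.304. Others deviated in opposite directions, such as wild type +Fe 1 with wild type -Fe 2 (-0.504). The replicate number was therefore kept as an alternative. Other alternatives were DESeq2 1.42.0, RLE factors, no filter, at least 10 reads in every library, limma 3.58.1 on log2(FPKM + 1) or log2(FPKM + 0.1) with at least 1 FPKM in 3 libraries, the 6 libraries compared, the outlying libraries left out, and each library left out. Protein sequences were not used here.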

Additional observations from a re-analysis of the deposited data

How the results depend on the processing

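The direction of ADH1, PDC1, LDH, SUS4, HB1 and LBD41 with iron supply was upward in both genotypes under every alternative run, and ADH1 and SUS4 passed the threshold in all of them. In wild type the count of genes called stayed at 6 under the other tests, scalings and filters, was 7 without the outlying libraries, and ranged from 3 to 6 when each library was left out. In clf it was 6 of the 7 genes with an adjusted p in DESeq2, which called 4.84% of all genes it tested. It was 3 with only the 6 libraries compared (ADH1, SUS4 and LBD41) and 8 without the outlying libraries. When each library was left out it ranged from 2 to 5. The shares of all genes called with 6 libraries or with a single library left out are not given here. Under the genotype comparisons and the difference between the iron responses, leaving out the outlying libraries gave 1 call under +Fe, 3 under -Fe and 1 for the difference, against 0. That setting removes the library farthest from its group, which narrows the spread within groups by construction. The part of this narrowing in these calls was not tested. With the replicate number as a block, 6 genes were called in wild type and 4 in clf, where PDC1 had an adjusted p of 0.0546, and no other call of the 8 genes changed.

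Directions reversed in values that were not called with all 12 libraries. SUS1 in clf was -0.04 and -0.06 with limma on log2(FPKM + 1) and log2(FPKM + 0.1), and -0.68 without the outlying libraries, where it passed (adjusted p = 0.00838). ADH1 (clf minus wild type) was -0.03 with either pseudocount under +Fe, -0.10 and -0.11 under -Fe and -0.08 and -0.07 for the difference between the iron responses, and without the outlying libraries it was -0.31 under -Fe and -0.40 for the difference. SUS4 under +Fe was then -0.07. The cause was not tested.

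When each library was left out, the iron response of PDC2 ranged from -0.55 to 1.04 in wild type and from -0.59 to 1.91 in clf, and that of SUS1 in clf from -0.88 to 1.05. The genotype difference under +Fe ranged from -0.11 to 0.09 for ADH1, -0.16 to 0.57 for PDC1, -0.41 to 1.18 for PDC2 and -0.12 to 0.35 for SUS4. Under -Fe it ranged from -0.56 to 0.51 for ADH1, -0.83 to 0.36 for PDC1, -0.44 to 2.05 for PDC2, -0.98 to 0.05 for LDH, -0.26 to 1.69 for SUS1, -0.08 to 1.1 for SUS4 and -0.15 to 1.14 for LBD41. The difference between the iron responses ranged from -0.57 to 0.49 for ADH1, -1.1 to 0.15 for PDC1, -1.03 to 1.47 for PDC2, -0.22 to 0.95 for SUS4 and -0.92 to 0.36 for HB1. Most of the low ends came without clf -Fe replicate 1. With 3 libraries in a group, differences between genotypes within these ranges were not resolved.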
